A study of Mus musculus with 6 samples.

Results

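The genes described here encode the alcohol, aldehyde and retinol dehydrogenases of the mouse, taken as every row of the count table whose symbol begins with Adh, Aldh or Rdh followed by a digit. They were 43 of the 52323 genes in the table, with 7 Adh, 21 Aldh and 15 Rdh genes. Their RNA was measured by bulk RNA-seq in damaged hepatocytes (dHeps), which were perfused from livers of mice with chronic injury by carbon tetrachloride (CCl4) and cultured for 16 days in a serum-free maintenance medium. All groups shared the genotype AAV-TBG-Cre:Rosa-LSL-tdTomato, in which an adeno-associated virus carries Cre recombinase under the liver-specific TBG promoter and Cre switches on the red reporter tdTomato. The reporter therefore marks cells that were hepatocytes when the virus was given, and no sort on it was stated for these cultures. All mice had received CCl4 for 12 weeks, from 8 to 10 weeks of age, and both sexes were used in the study. The DMSO group received the solvent. The 3C group received CID755673 at 50 µM to block protein kinase D, GSK429286A at 2 µM, and ETC-1002 at 5 µM, which blocks ATP citrate lyase. The 5C group received these with 5 µM salidroside, a glycoside from plants, and 2 µM forskolin, which activates adenylate cyclase. Each group had 2 libraries. The study's methods describe its replicates as biological, while the labels did not say whether the 2 libraries came from separate animals, and p-values measure the spread between these libraries.

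Alcohol dehydrogenases (Adh) oxidise ethanol and retinol to aldehydes, and aldehyde dehydrogenases (Aldh) oxidise aldehydes to acids. The Rdh enzymes, most of them membrane-bound short-chain dehydrogenases, carry out the retinol to retinaldehyde step or its reverse. Enzymes such as Aldh1a1 and Aldh1a2 then make retinoic acid, the ligand of the retinoic acid receptors. The liver is the main organ of ethanol clearance and vitamin A storage: hepatocytes hold much of the Adh1, Aldh1a1 and Aldh2 activity, while stellate cells store retinyl esters. The 43 genes were grouped by such general knowledge into 15 hepatocyte forms, 9 broadly expressed forms, 12 forms better known from other cell types, and 7 forms left unassigned. The roles were set with earlier results of these data known, so contrasts between them are descriptions and not tests.

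Several members are close copies of a neighbour, and stretches of their coding sequence are shown because they decide whether a read can be assigned to one gene. Aldh1a1 (chr19:20469539-20622825, plus strand, GRCm39) and Aldh1a7 (chr19:20667107-20704932, minus strand) lie next to each other, and their coding sequences were 91.6% identical. In the following 90 bases of coding exon 9, at chr19:20608030-20608119 and chr19:20685609-20685698, capitals mark the 16 bases that differ.
Aldh1a1: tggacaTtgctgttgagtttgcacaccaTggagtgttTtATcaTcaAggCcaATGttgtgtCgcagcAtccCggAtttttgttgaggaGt
Aldh1a7: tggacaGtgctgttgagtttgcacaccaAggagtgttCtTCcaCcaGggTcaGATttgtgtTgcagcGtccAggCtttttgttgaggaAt
Because such differences were frequent, only 3.27% of the 50-base words of the longest Aldh1a1 transcript, and 3.38% of those of Aldh1a7, also occurred in transcripts of another gene. Reads of this pair could therefore mostly be told apart.

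The Rdh cluster on chromosome 10 was harder to resolve. The first 90 coding bases of Rdh7 (chr10:127724393-127724482, minus strand) and Rdh16 (chr10:127637067-127637156, plus strand) differed at only 4 positions, in capitals, although the whole coding sequences were 86.1% identical.
Rdh7: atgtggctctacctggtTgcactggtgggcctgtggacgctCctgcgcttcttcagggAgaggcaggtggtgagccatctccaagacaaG
Rdh16: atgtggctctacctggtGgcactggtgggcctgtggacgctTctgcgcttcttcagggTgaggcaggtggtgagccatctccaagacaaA
Rdh9 (chr10:127612354-127612443 for the same stretch) differed from Rdh7 at 8 of these bases, which are capitals in the Rdh9 line, and its coding sequence was 96.3% identical to that of Rdh16.
Rdh9: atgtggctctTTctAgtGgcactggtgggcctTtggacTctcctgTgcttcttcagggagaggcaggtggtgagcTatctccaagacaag
Shared 50-base words made up 13.19% of Rdh7, 16.47% of Rdh16 and 91.71% of Rdh9, and 89.5% of the words of Rdh9 occurred in Rdh16f1, an annotated gene that spans Rdh9 and shares its exons. Values of Rdh9 and Rdh16f1 are therefore uncertain, and those of Rdh7 and Rdh16 to a smaller degree. Aldh4a1 shared 35.5% of its words with Gm21969 and is uncertain too. Exons of 19 of the 34 tested members overlapped a gene on the opposite strand. The use of strand in counting was not stated, so reads of such pairs cannot be told apart.

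Levels within a gene are given as CPM, the estimated counts scaled to a library total of 1000000, and levels of single genes are compared with each other only as FPKM, which also divides by gene length. A gene was called, and is said to have risen or fallen, at a Benjamini-Hochberg adjusted p under 0.05 over all 19135 tested genes and an absolute log2 fold change above 1 in edgeR's quasi-likelihood test. Library totals ranged from 65916573 to 69245895 estimated counts, so depth differed little between groups, and a floor of 3 fragments, taken as 12 count units, stood at 0.173 to 0.182 CPM. Of the 43 members, 34 passed the filter on low counts, and 28 averaged at least 1 CPM over the 6 libraries. The labelled cell type was present, with all 12 hepatocyte markers tested and each above the floor in at least 1 library, but it was not alone. In the DMSO libraries the 12 macrophage markers summed to 12362 and 13440 CPM, and the hepatocyte markers to 3368 and 3084 CPM. Sums over different genes do not give shares of cells, and the macrophage marker Lyz2 alone was at 6024 and 6137 CPM. The study reported a high share of reporter-positive cells with this isolation. Fewer cells of a type and less RNA per cell cannot be told apart in such bulk samples.

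A subset of the hepatocyte forms rose in both cocktails, and the test called no member lower. In 5C against DMSO 9 of the 34 tested members were called higher, beside 7.3% of all tested genes, and 0 were called lower, beside 4.42%. Against DMSO, 3C had 8 called higher (5.83% of all genes) and 0 lower (3.62%). Between the cocktails 2 members were called higher in 5C (2.16% of all genes) and 0 lower (0.852%). At an unadjusted p under 0.05 the edgeR test placed 4, 4 and 5 members lower in these comparisons. The share of all tested genes at that threshold was not taken, so these counts cannot be set against it. DESeq2 called 1, 0 and 0 members lower, beside 936, 773 and 193 of all 19135 tested genes. The 1 was Aldh3a1, named here after its values were seen, which did not exceed the floor in any of the 6 libraries, so no fold is given. In 5C against DMSO the median log2 fold change was 0.53 over the tested members and 0.00413 over all tested genes, and in 3C against DMSO it was 0.47 beside 0.00876. The libraries of the compared groups did not overlap for 28 of the 34 members in 5C against DMSO (63.1% of all genes), for 29 in 3C against DMSO (61.3%) and for 23 in 5C against 3C (58%). At an adjusted p under 0.05 with no limit on the fold, 18 members were higher and 2 lower in 5C against DMSO, beside 15.6% and 13.1% of all genes, 16 and 2 in 3C against DMSO, beside 12.7% and 11.8%, and 7 and 2 in 5C against 3C, beside 7.33% and 5.33%.

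By role, 8 of the 15 hepatocyte forms rose in 5C against DMSO, as did 1 of the 9 tested forms of other cell types and none of the 9 broadly expressed forms. In 3C against DMSO the counts were 7, 0 and 1, in the same order. For the hepatocyte forms the median log2 fold change was 1.41 with 5C and 1.498 with 3C, for the broadly expressed forms 0.25 and 0.12, and for the forms of other cell types -0.28 and -0.36. With Rdh16, which was at 0 in DMSO, set to its lower bound, the median of the hepatocyte forms stayed at 1.41 with 5C and was 1.22 with 3C. Adh1, Adh4, Aldh1a7, Aldh1l1, Aldh8a1, Rdh7 and Rdh16 were called higher in both cocktails. These 2 comparisons share the DMSO libraries, so their agreement is not independent. Aldh1a2 and Rdh9 were called in 5C alone and Aldh5a1 in 3C alone, but none of these 3 was called between the cocktails.

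**Figure D1:**
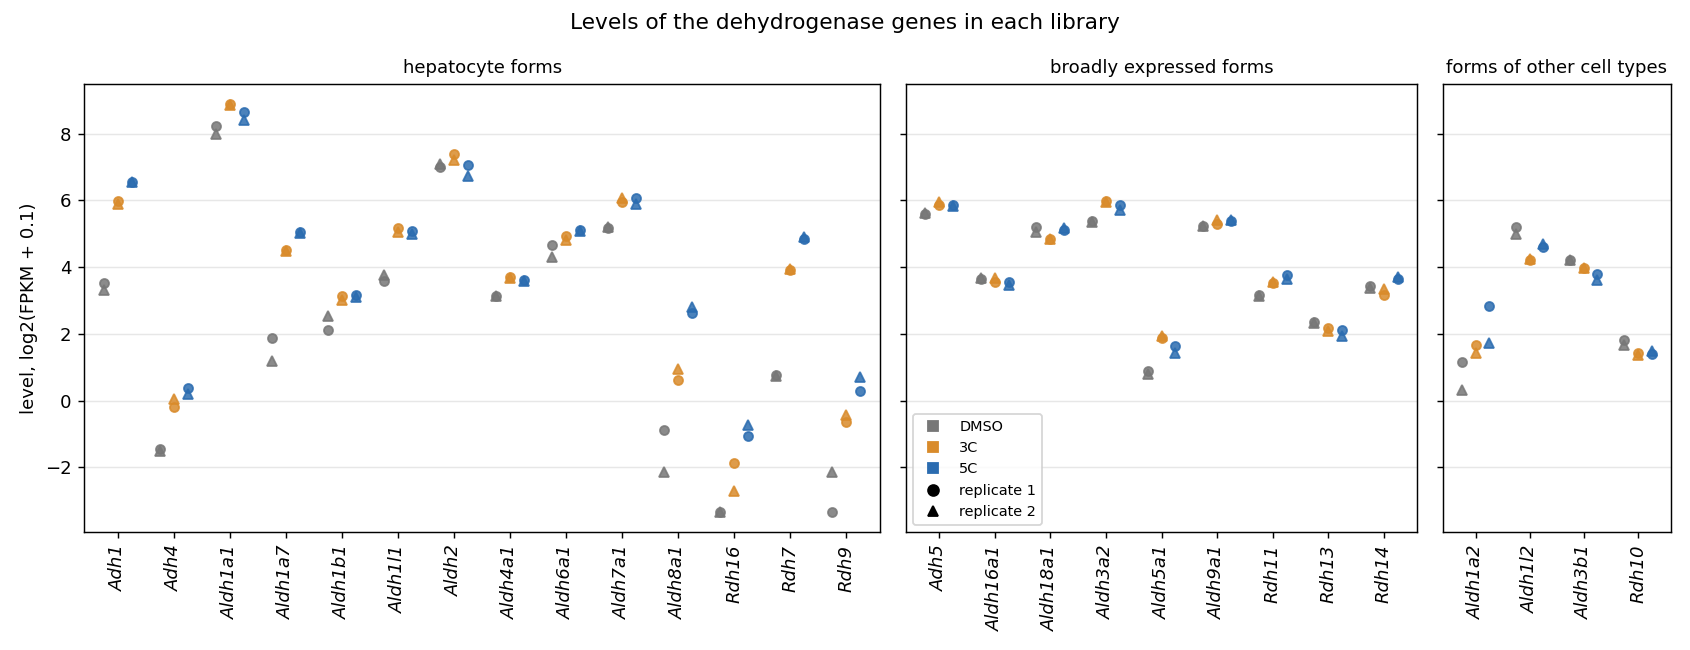
Each point is the level of a gene in a library, as log2(FPKM + 0.1) with FPKM per length, for the 27 members described one by one, in panels by role; colours mark the groups and shapes the replicates. Aldh1a1 and Aldh2 lie at the top in every group, while Adh1, Aldh1a7, Aldh8a1 and Rdh7 climb from DMSO through 3C to 5C.

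The hepatocyte alcohol dehydrogenase Adh1 rose in both cocktails. Adh1 (ENSMUSG00000074207, chr3:137966752-137996462) is the main class I enzyme, which clears ethanol and also oxidises retinol. Its level was 18.4 and 16.6 CPM in DMSO, 107 and 97.2 in 3C, and 152 and 158 in 5C. The 3 groups did not overlap. The log2 fold change against DMSO was 3.17 (SE 0.09, adjusted p = 1.74e-07) in 5C and 2.52 (SE 0.08, adjusted p = 1.20e-06) in 3C. Between 5C and 3C it was 0.65 (SE 0.08, adjusted p = 0.00119), which is past the p threshold and below the fold limit. Adh4 (chr3:138121125-138137305), the class II enzyme of the liver, followed at a far lower level, with 0.387 and 0.379 CPM in DMSO, 1.16 and 1.38 in 3C, and 1.71 and 1.56 in 5C. Adh4 rose by a log2 fold change of 2.11 (SE 0.39, adjusted p = 0.00325) in 5C and 1.69 (SE 0.39, adjusted p = 0.0114) in 3C. The 3C call of Adh4 was lost without 3C replicate 2 (adjusted p = 0.0748).

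The broadly expressed class III enzyme Adh5, which removes formaldehyde bound to glutathione, stayed in a narrow range, with 84.3 and 89.2 CPM in DMSO, 106 and 109 in 3C, and 101 and 102 in 5C. Its log2 fold change against DMSO was 0.25 with 5C and 0.28 with 3C. Per length, Adh1 stood at 0.237 and 0.200 times the FPKM of Adh5 in the DMSO libraries, at 1.09 and 0.960 times in 3C, and at 1.61 and 1.67 times in 5C. The order of the 2 genes was thus opposite in DMSO and 5C, and in 3C their replicates overlapped. Adh7, a class IV enzyme of epithelia such as the stomach lining, was at 2.19 and 1.61 CPM in DMSO, 1.15 and 0.865 in 3C, and 0.550 and 1.24 in 5C, and was not called (log2 fold change -1.06 in 5C, adjusted p = 0.129). It was called lower without 5C replicate 2, which is why it is named, after its values were seen. Adh6a and Adh6b had 0 counts in every library.

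Among the retinol dehydrogenases the called genes lay in the chromosome 10 cluster. Rdh7 (ENSMUSG00000040134, chr10:127719896-127724686, minus strand), a microsomal enzyme of the liver that oxidises retinol and steroids, was at 2.92 and 2.94 CPM in DMSO, 28.2 and 28.2 in 3C, and 52.3 and 56.9 in 5C. The groups stood well apart, and replicates differed little. Rdh7 rose by a log2 fold change of 4.24 (SE 0.11, adjusted p = 1.74e-07) in 5C and of 3.23 (SE 0.11, adjusted p = 1.20e-06) in 3C. Between 5C and 3C the log2 fold change was 1.00 (SE 0.10, 95% interval 0.79 to 1.22, adjusted p = 0.000455), only just past the fold limit. It fell under that limit without DMSO replicate 2 (0.997), without 3C replicate 1 (1.00 after rounding) and without 5C replicate 2 (0.92).

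Rdh16 (chr10:127637001-127682434), a close relative of Rdh7 in liver, had 0 counts in both DMSO libraries, 0.634 and 0.205 CPM in 3C, and 1.32 and 1.81 CPM in 5C. It was called higher in both cocktails (adjusted p = 0.000616 in 5C and 0.00342 in 3C). Against the mean floor of the DMSO libraries its mean level was at least 8.66-fold higher in 5C and at least 2.33-fold higher in 3C. The 3C value is uncertain, since 3C replicate 2, at 0.205 CPM, lay close to its own floor of 0.176. With 0 counts in DMSO, Rdh16 passed the filter only through the cocktail libraries. The 5C libraries lay above both 3C libraries, yet the difference was not called (log2 fold change 1.95, SE 0.65, adjusted p = 0.102).

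Rdh9 (chr10:127612255-127628566) is given together with Rdh16f1, whose sequence it shares. The table listed Rdh9 at 0 and 0.394 CPM in DMSO, 1.68 and 1.36 in 3C, and 3.16 and 4.65 in 5C. It listed Rdh16f1, which spans Rdh9, at 0.506 CPM in DMSO replicate 1 and at 0 in the other 5 libraries. Thus the DMSO library without Rdh9 counts was the only one with Rdh16f1 counts. As separate rows, Rdh9 was called in 5C against DMSO (log2 fold change 4.31, SE 1.14, adjusted p = 0.0385) and not in 3C against DMSO (2.90, SE 1.11, adjusted p = 0.128). The 5C call of the separate row was lost when any of the 3C or 5C libraries was left out (adjusted p = 0.0853 to 0.118), and when either DMSO library was left out Rdh9 was called in 3C too. The size of the 5C value rested on the DMSO libraries, with 3.31 without DMSO replicate 1. Without DMSO replicate 2 the remaining DMSO library was at 0, so no fold is given. With both rows added together before the fit, a step chosen after the values were seen, the DMSO libraries agreed better, at 0.506 and 0.394 CPM. The summed gene then passed the thresholds in 5C against DMSO (log2 fold change 3.13, SE 0.36, adjusted p = 0.000208), in 3C against DMSO (1.72, SE 0.36, adjusted p = 0.00692) and in 5C against 3C (1.41, SE 0.33, adjusted p = 0.0242).

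None of the broadly expressed retinol and retinaldehyde reductases was called. Rdh11, a microsomal reductase, was at 31.4 and 32.2 CPM in DMSO, 42.0 and 41.0 in 3C, and 47.5 and 45.1 in 5C, log2 fold changes being 0.56 with 5C and 0.35 with 3C. Rdh13, a mitochondrial relative, had log2 fold changes of -0.26 and -0.23. Rdh14 was at 17.1 and 17.3 CPM in DMSO, 14.7 and 16.6 in 3C, and 20.2 and 21.6 in 5C, so the 5C libraries were the highest. In FPKM, Rdh7 stood at 0.1804 and 0.178 times Rdh11 in DMSO, at 1.30 and 1.31 times in 3C, and at 2.11 and 2.45 times in 5C. Rdh10, which makes retinaldehyde for retinoic acid synthesis in the embryo and in many non-hepatocyte cells, was at 13.1 and 12.3 CPM in DMSO, 10.4 and 9.86 in 3C, and 9.83 and 10.8 in 5C. Its log2 fold changes of -0.28 (adjusted p = 0.172) and -0.36 (adjusted p = 0.0938) did not pass the test.

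Genes of the Aldh1a group had unequal fold changes. Aldh1a1 (ENSMUSG00000053279), a cytosolic enzyme that makes retinoic acid and clears other aldehydes, was the most abundant member per length in every group, with mean FPKM of 275 ± 30.4 (SD, n = 2) in DMSO, 467 ± 8.83 in 3C and 369 ± 40.7 in 5C. In CPM it was at 714 and 632 in DMSO, 1221 and 1087 in 3C, and 944 and 837 in 5C. The 3C libraries were the highest and the groups did not overlap. The log2 fold changes were 0.75 (adjusted p = 0.000318) in 3C and 0.42 (adjusted p = 0.00696) in 5C against DMSO, and -0.32 (SE 0.09, adjusted p = 0.0463) in 5C against 3C, all below the fold limit.

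Its neighbour Aldh1a7 (ENSMUSG00000024747), a rodent copy of Aldh1a1, started far lower and rose. It was at 7.88 and 5.11 CPM in DMSO, 53.1 and 50.7 in 3C, and 74.1 and 75.6 in 5C. The log2 fold change against DMSO was 3.55 (SE 0.17, adjusted p = 2.90e-06) in 5C and 2.97 (SE 0.17, adjusted p = 1.03e-05) in 3C, and 0.58 (adjusted p = 0.0447) between 5C and 3C. In FPKM, Aldh1a1 exceeded Aldh1a7 83.7 and 116 times in the DMSO libraries, 20.8 and 20.8 times in 3C, and 12.1 and 10.5 times in 5C. The DMSO ratios were thus several times those of either cocktail, while Aldh1a1 stayed ahead in all 6 libraries.

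The promoters of this pair are shown because the neighbours had fold changes of different size. They are the 250 bases before the canonical start, chr19:20576925-20577174 (plus strand) and chr19:20704933-20705182 (minus strand) of GRCm39, with the letters TATAAA, the core of a TATA box, in capitals where they occur on either strand. They stood at positions -67 to -62 from the start in Aldh1a1 and -232 to -227 in Aldh1a7.
Aldh1a1: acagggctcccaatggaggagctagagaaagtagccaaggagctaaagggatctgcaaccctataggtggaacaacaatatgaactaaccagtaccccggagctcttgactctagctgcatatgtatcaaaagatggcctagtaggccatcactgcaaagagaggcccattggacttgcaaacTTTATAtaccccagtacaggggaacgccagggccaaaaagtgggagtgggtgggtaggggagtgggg
Aldh1a7: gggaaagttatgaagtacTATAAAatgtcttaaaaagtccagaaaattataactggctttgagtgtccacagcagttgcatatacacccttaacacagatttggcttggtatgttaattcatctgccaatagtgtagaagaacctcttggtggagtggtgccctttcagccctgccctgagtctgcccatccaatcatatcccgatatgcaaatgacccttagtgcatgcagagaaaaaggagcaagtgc
The letters TATAAA occurred in 7 of the 34 promoters of tested members (Adh7, Aldh1a1, Aldh1a7, Aldh1b1, Aldh1l1, Rdh16 and Rdh16f2) and in 11.9% of 21770 promoters of protein-coding genes. The forkhead letters TGTTTAC occurred in 1, that of Rdh16f2, beside 2.72% of all. Exact strings for HNF4A (CAAAGTCCA), HNF1, C/EBP (TTGCGCAA) and the DR5 repeat of retinoic acid receptors were found in 0 of the 34. They occurred in 0.372%, 0.00459%, 0.165% and 0.00459% of all promoters. Strings this rare would hardly be met in 34 promoters, and factors also bind variants of them. Their absence therefore does not show that binding sites are lacking.

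**Figure D2:**
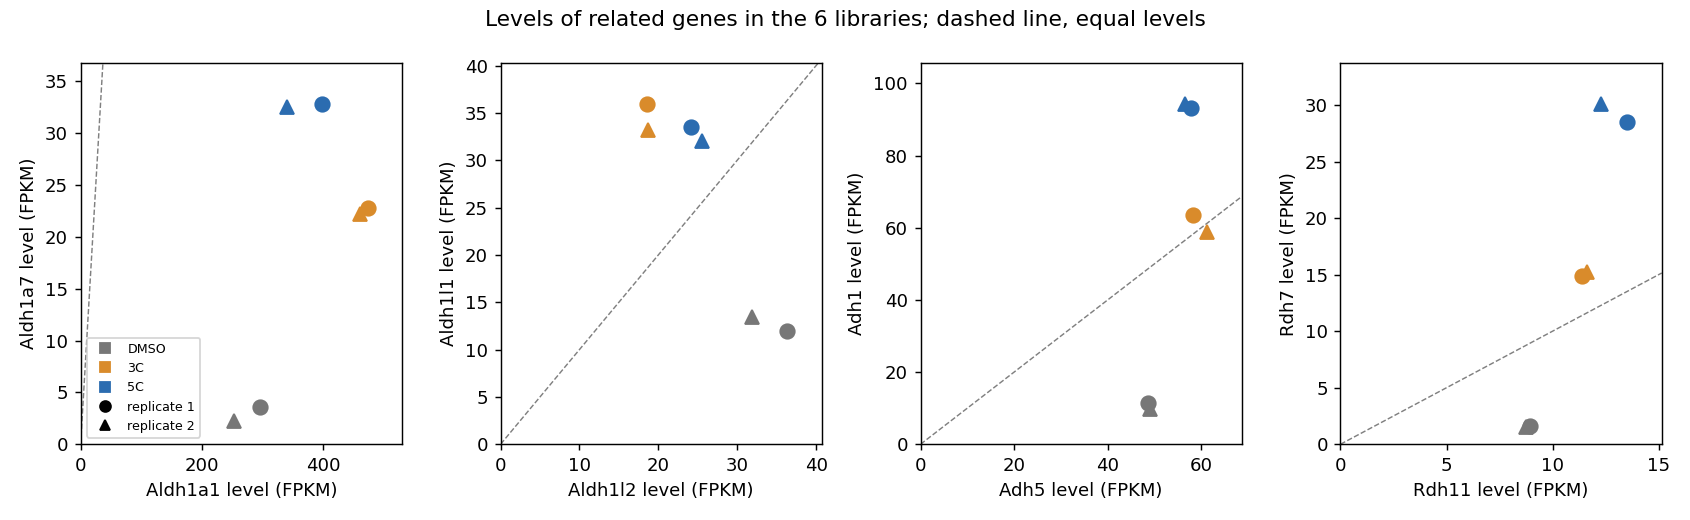
FPKM of 4 pairs of related genes in each of the 6 libraries, with the dashed line at equal levels; colours mark groups and shapes replicates. The DMSO libraries lie apart at low Aldh1a7, Aldh1l1, Adh1 and Rdh7, and in the pairs with Aldh1l2 and Rdh11 both cocktails lie on the other side of the line from DMSO.

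Aldh8a1 (ENSMUSG00000037542, chr10:21253190-21272568), a cytosolic enzyme first described for 9-cis-retinaldehyde and active in tryptophan breakdown, had the largest called difference between the cocktails among the members. It was at 1.09 and 0.334 CPM in DMSO, 3.65 and 4.62 in 3C, and 15.0 and 17.6 in 5C. Each group lay above the one before. The log2 fold change was 4.54 (SE 0.48, adjusted p = 0.000398) in 5C and 2.51 (SE 0.45, adjusted p = 0.00666) in 3C against DMSO, and 2.03 (SE 0.41, adjusted p = 0.0205) in 5C against 3C. The calls against DMSO held when either DMSO library was left out, but their size moved. Leaving out DMSO replicate 1 gave 5.61 for 5C and 3.58 for 3C, and leaving out DMSO replicate 2 gave 3.93 and 1.91. The call between the cocktails was lost when any of the 3C or 5C libraries was left out (log2 fold change 1.87 to 2.21, adjusted p = 0.0639 to 0.155).

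Acetaldehyde is mostly cleared in mitochondria by Aldh2, which held the second rank per length in every group and was not called in any comparison. Aldh2 (chr5:121704090-121732089) was at 467 and 495 CPM in DMSO, 617 and 561 in 3C, and 486 and 416 in 5C. The 5C libraries overlapped the DMSO libraries. Its log2 fold change was -0.08 in 5C against DMSO (95% interval -0.28 to 0.12, adjusted p = 0.592) and 0.26 in 3C (0.06 to 0.46, adjusted p = 0.0626). Aldh1b1, a mitochondrial relative that also takes acetaldehyde, was at 10.4 and 14.8 CPM in DMSO, 22.8 and 20.4 in 3C, and 22.2 and 21.8 in 5C. Its log2 fold changes of 0.82 and 0.74 (adjusted p = 0.00546 and 0.0105) lay below the fold limit, and it was called without DMSO replicate 2 (1.11 and 1.04).

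Of the folate enzymes, Aldh1l1 rose in both cocktails, and Aldh1l2 was lower by less than the fold limit. Aldh1l1 (chr6:90463409-90577185), the cytosolic 10-formyltetrahydrofolate dehydrogenase of hepatocytes and astrocytes, was at 40.4 and 47.9 CPM in DMSO, 129 and 127 in 3C, and 115 and 117 in 5C. It rose by a log2 fold change of 1.41 (SE 0.09, adjusted p = 6.12e-06) in 5C and 1.498 (SE 0.09, adjusted p = 7.67e-06) in 3C. Between the cocktails the difference was -0.09 (95% interval -0.29 to 0.11). Aldh1l2 (chr10:83323314-83370005), the mitochondrial form, was at 232 and 214 CPM in DMSO, 124 and 122 in 3C, and 158 and 171 in 5C. The 3C libraries were the lowest. Its log2 fold changes were -0.89 (SE 0.07, adjusted p = 3.77e-05) in 3C, -0.42 (adjusted p = 0.0025) in 5C, and 0.47 (adjusted p = 0.0039) in 5C against 3C, none past the fold limit. In FPKM, Aldh1l1 stood at 0.329 and 0.424 times Aldh1l2 in DMSO, at 1.94 and 1.78 times in 3C, and at 1.39 and 1.26 times in 5C, although the coding sequences were only 70.0% identical and shared almost no words.

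Aldh7a1, Aldh6a1 and Aldh4a1 were higher in both cocktails by less than the fold limit. Aldh7a1, the lysine enzyme antiquitin, was at 96.4 and 100.04 CPM in DMSO, 172 and 164 in 3C, and 164 and 144 in 5C, with log2 fold changes of 0.74 in 3C and 0.67 in 5C. Aldh6a1, which acts in valine and thymine breakdown, had log2 fold changes of 0.39 and 0.64, and Aldh4a1, the proline enzyme, of 0.55 and 0.50. All 6 of these values had an adjusted p under 0.05, from 0.00013 to 0.012. Aldh5a1 (chr13:25091562-25121672), which ends the breakdown of GABA, was at 10.7 and 10.4 CPM in DMSO, 22.9 and 23.1 in 3C, and 18.8 and 16.6 in 5C. It was called in 3C (log2 fold change 1.09, SE 0.11, adjusted p = 0.000129) and stayed below the fold limit in 5C (0.77, SE 0.11, adjusted p = 0.000859). The difference between the cocktails was -0.33 (SE 0.11, adjusted p = 0.0954).

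The other broadly expressed forms were not called. Aldh3a2, which oxidises fatty aldehydes, was at 136 and 137 CPM in DMSO, 214 and 208 in 3C, and 193 and 177 in 5C (log2 fold change 0.60 with 3C and 0.46 with 5C). Aldh9a1, an enzyme of carnitine synthesis, was at 112 and 118 CPM in DMSO, 125 and 131 in 3C, and 129 and 135 in 5C. Aldh18a1, which makes the proline precursor from glutamate, was at 136 and 132 CPM in DMSO, 111 and 110 in 3C, and 129 and 137 in 5C, so the 3C libraries alone were low (log2 fold change -0.31, adjusted p = 0.00914). Aldh16a1 was at 39.05 to 46.9 CPM over all 6 libraries, and its groups overlapped in every comparison.

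**Figure D3:**
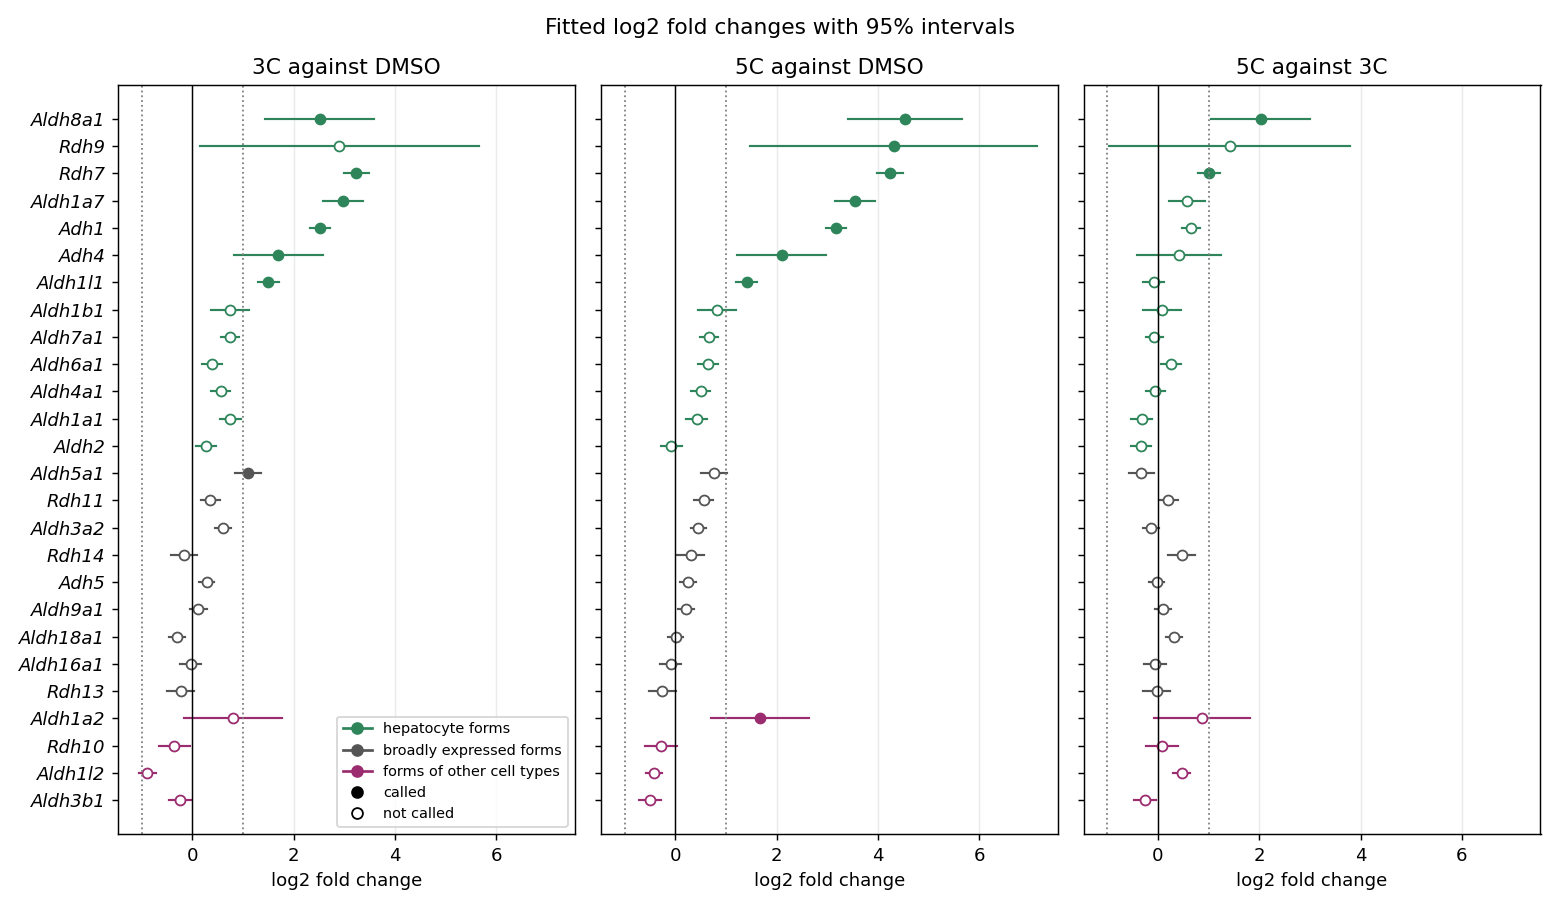
Fitted log2 fold changes (points) with 95% intervals (lines) of 26 members in the 3 comparisons, coloured by role; filled points were called, dotted lines mark the fold limit of 1, and Rdh16 is left out because it was at 0 in DMSO. Filled points are almost all hepatocyte forms, and in 5C against 3C only Aldh8a1 and Rdh7 are filled.

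Among forms of other cell types, Aldh1a2 alone was called. Aldh1a2 (chr9:71122630-71203527), the retinaldehyde dehydrogenase of mesothelium, stellate cells and embryonic mesoderm, was at 5.20 and 2.91 CPM in DMSO, 7.93 and 6.51 in 3C, and 17.4 and 8.13 in 5C. The 5C libraries differed from each other by more than DMSO from 3C. The log2 fold change in 5C against DMSO was 1.67 (SE 0.41, adjusted p = 0.022), and the call was lost without DMSO replicate 2 (1.32, adjusted p = 0.0879) and without 5C replicate 1 (1.04, adjusted p = 0.0742). Markers of cells that express it are given beside it. Mesothelial markers summed to 1041 to 1252 CPM in DMSO, 1378 to 1487 in 3C, and 2408 to 2503 in 5C, with 5 of 7 called higher in 5C against DMSO, and stellate and fibroblast markers summed to 6251 to 7375, 6055 to 6092, and 10125 to 10791 CPM, with 5 of 12 called higher. In 3C against DMSO 1 of the 7 and 3 of the 12 were called higher. The stellate and fibroblast list went both ways. Its sums were carried largely by Col1a1 and Col1a2, at 3482 and 2814 CPM in DMSO replicate 1. Des was called lower in 3C (log2 fold change -1.02, adjusted p = 0.000228) and was lower in 5C by less than the fold limit (-0.72, adjusted p = 0.00147). The part of mesothelial and stellate cells in the Aldh1a2 result was not tested.

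Aldh3b1, an enzyme of membrane lipid aldehydes, was at 37.6 and 40.4 CPM in DMSO, 33.9 and 33.4 in 3C, and 28.6 and 25.8 in 5C (log2 fold change -0.50 in 5C, adjusted p = 0.00356). Over the same groups the macrophage markers summed to 12362 to 13440, 4081 to 4097, and 2699 to 2782 CPM, with 11 of 12 called lower in each cocktail against DMSO. Each of the 12 exceeded the floor in at least 1 library. The part of macrophages in the levels of Aldh3b1, Aldh1l2 and the other members was not tested. The 7 tested members that were neither called nor at a mean of 10 CPM (Adh7, Aldh1a3, Aldh3a1, Rdh1, Rdh5, Rdh12 and Rdh16f2) ranged from 0 to 7.12 CPM, and 0 of them were called. Rdh5, the highest of these, shared 92.7% of its words with the overlapping gene Bloc1s1. Of the 9 members that failed the filter, 5 (Adh6a, Adh6b, Aldh3b2, Rdh8 and Rdh19) had 0 counts in every library, and the largest count among the other 4 (Adh6-ps1, Aldh3b3, Rdh16f1 and Rdh18-ps) was 34, that of Rdh16f1 in DMSO replicate 1.

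Summed over forms, the fold differences were smaller than those of most called genes. The 15 hepatocyte forms summed to 1481 and 1422 CPM in DMSO, 2521 and 2295 in 3C, and 2203 and 2023 in 5C, that is 1.66 times the DMSO mean in 3C and 1.46 times in 5C. The forms of other cell types summed to 296 and 276 CPM in DMSO, 183 and 179 in 3C, and 220 and 225 in 5C. Aldh1l2 alone made up 67.5% to 78.1% of the counts in this sum, and without it the forms summed to 64.9 and 61.7 CPM in DMSO, 59.7 and 57.5 in 3C, and 62.0 and 53.8 in 5C. Of the FPKM summed over all 43 members, Aldh1a1 held between 32.8% and 40.5% in every library and Aldh2 between 10.1% and 18.3%. Adh1 held 1.44% and 1.32% in DMSO, 5.44% and 5.17% in 3C, and 8.17% and 9.07% in 5C. Hepatocyte markers summed to 3084 to 3368 CPM in DMSO, 13227 to 13931 in 3C, and 12505 to 17913 in 5C, with 10 of 12 called higher in 5C and 11 of 12 in 3C against DMSO. Arg1 went the other way by less than the fold limit. Its log2 fold change against DMSO was -0.85 in 5C (adjusted p = 0.000269) and -0.33 in 3C (adjusted p = 0.0422). Cholangiocyte markers summed to 2921 to 3407, 3569 to 3763, and 2412 to 2718 CPM, with 5 of 7 called higher in 3C and 3 of 7 in 5C against DMSO. These sums rested mostly on Sox9 and Spp1, since Krt7, Krt19, Epcam, Cldn4 and Cldn7 each reached at most 146 CPM in any library. In 5C against DMSO the log2 fold change was above 0 for 6 of the 7, although the sum was lower. Endothelial markers summed to 1914 to 2397, 998 to 1006, and 797 to 852 CPM, with 5 of 9 tested called higher and 2 lower in 5C, and 3 higher and 2 lower in 3C. Endothelial markers thus went both ways. The endothelial cadherin Cdh5 was at 1.25 and 1.06 CPM in DMSO, 6.45 and 14.9 in 3C, and 43.3 and 72.2 in 5C. Lyve1, called lower in both cocktails, was at 309 and 319 CPM in DMSO, 66.1 and 78.1 in 3C, and 48.8 and 66.4 in 5C. Clec4g did not exceed the floor in any library. The part of these cell types in the levels of the members was not tested.

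**Figure D4:**
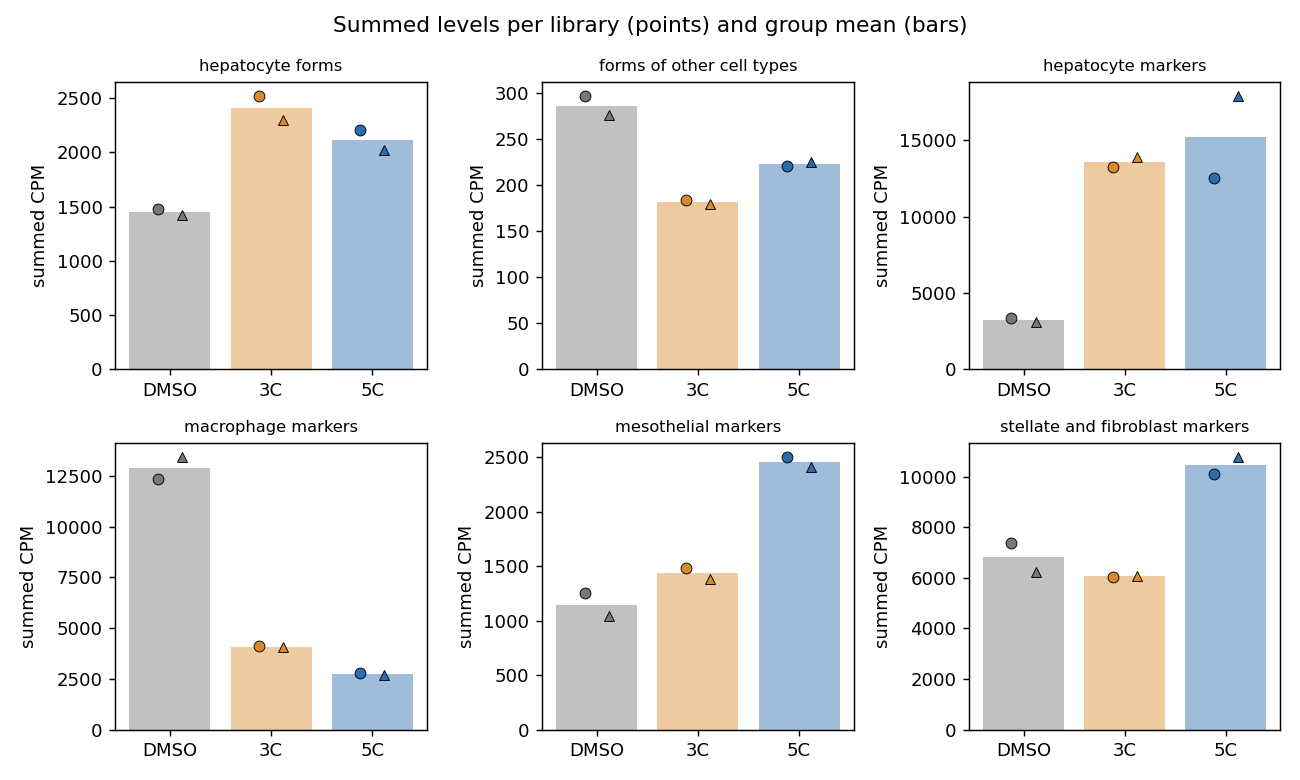
Summed CPM of the hepatocyte forms, the forms of other cell types and 4 marker lists, with a point for each library and a bar for the mean of the 2 libraries of a group. Hepatocyte forms and hepatocyte markers are lowest in DMSO, macrophage markers are highest there, and mesothelial markers are highest in 5C.

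Other genes of vitamin A handling made up a list of 29 genes with 23 tested. In 5C against DMSO 6 were called higher, beside 7.3% of all tested genes, and 1 lower, beside 4.42%. In 3C against DMSO 5 were called higher and 2 lower, beside 5.83% and 3.62%. In 5C against 3C 3 were called higher and 0 lower, beside 2.16% and 0.852%. Their median log2 fold changes were 0.48, 0.28 and 0.16. The genes called higher against DMSO include Rxrg and Hsd17b6 in both cocktails, which had 0 counts in DMSO. Rbp4, the plasma carrier of retinol, was at 299 and 304 CPM in DMSO, 968 and 928 in 3C, and 629 and 761 in 5C, and its partner Ttr rose by log2 fold changes of 2.02 in 3C and 2.35 in 5C. Lrat, which makes retinyl esters and marks stellate cells in liver, was at 6.92 and 8.01 CPM in DMSO, 30.8 and 34.4 in 3C, and 14.4 and 20.4 in 5C. All 3 were called in both cocktails, and the 5C call of Lrat was lost without 5C replicate 2. Rxrg was also counted as higher in both cocktails, but with 0 counts in DMSO it passed the filter only through the cocktail libraries. It was at 0.362 and 0.0586 CPM in 3C, and 0.304 and 0.433 in 5C. Its mean was at least 2.04-fold higher in 5C and at least 1.17-fold higher in 3C than the DMSO floor. Rxrg was called in neither cocktail with limma on either FPKM scale or with counts divided by 4.

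Of the enzymes that degrade retinoic acid, Cyp26a1 rose and Cyp26b1 fell in 5C against DMSO, and Cyp26c1 was too low to be tested. Cyp26a1, the form of the liver and a known target of retinoic acid receptors, was at 1.56 and 1.41 CPM in DMSO, 2.40 and 2.37 in 3C, and 8.60 and 5.11 in 5C, with calls in 5C against DMSO (log2 fold change 2.22, SE 0.29) and against 3C (1.57, SE 0.29, adjusted p = 0.00762). It was not called in 3C against DMSO (0.65, adjusted p = 0.148), and the call against 3C was lost without 3C replicate 1, 3C replicate 2 or 5C replicate 1 (adjusted p = 0.0640 to 0.0678). Cyp26b1, the form of many other tissues, was at 31.5 and 29.6 CPM in DMSO, 7.90 and 7.14 in 3C, and 5.41 and 3.84 in 5C, and fell by 2.70 and 2.05 on the log2 scale in 5C and 3C. Hsd17b6, a steroid and retinol dehydrogenase related to the Rdh genes, had 0 counts in DMSO, 0.528 and 0.308 CPM in 3C, and 5.11 and 6.11 in 5C. Like Rxrg, it passed the filter only through the cocktail libraries. It was at least 31.1-fold higher in 5C and at least 2.32-fold higher in 3C than the DMSO floor. Between the cocktails it rose by a log2 fold change of 3.79 (SE 0.39, adjusted p = 0.00101). Crabp2, a carrier of retinoic acid, was at 0.923 and 0.804 CPM in DMSO, 0.226 and 0.308 in 3C, and 0.999 and 2.22 in 5C, lower in 3C than in DMSO (log2 fold change -1.72, adjusted p = 0.0438) and higher in 5C than in 3C (2.64, adjusted p = 0.0124). The first of these calls was lost when any library but 5C replicate 1 was left out (adjusted p = 0.0555 to 0.205), and the second without 3C replicate 1, 3C replicate 2 or 5C replicate 2.

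Of 11 further genes of ethanol and acetate metabolism, 2 were called higher and 0 lower in each cocktail against DMSO, and 1 was called higher in 5C against 3C. Of all tested genes 7.3% were called higher in 5C against DMSO, 5.83% in 3C against DMSO and 2.16% in 5C against 3C. The shares called lower against DMSO were 4.42% in 5C and 3.62% in 3C. At an adjusted p under 0.05 with no fold limit, 4 were higher and 3 lower in 5C against DMSO, beside 15.6% and 13.1% of all genes. In 3C against DMSO 5 were higher and 3 lower, beside 12.7% and 11.8%. Cyp2e1, the microsomal ethanol oxidase of pericentral hepatocytes, was at 0.357 and 0.485 CPM in DMSO, 3.35 and 2.08 in 3C, and 6.79 and 12.8 in 5C. It passed in all 3 comparisons, with a log2 fold change against DMSO of 4.56 for 5C and 2.65 for 3C, and of 1.91 (SE 0.36, adjusted p = 0.00963) between them. The last call was lost without 3C replicate 2 and without 5C replicate 2. Adhfe1, a mitochondrial hydroxyacid transhydrogenase, rose by 1.18 in 5C and 1.30 in 3C on the log2 scale.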

How the data were processed

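Total RNA of dHeps cultured with DMSO, 3C or 5C was sequenced in 6 libraries, 2 per group. The authors deposited whole-number estimated counts per gene, not normalized, and FPKM, which they scaled for gene length and library total. Their processing notes name featureCounts, Subread, DESeq2 and GRCm39 without roles. The aligner, annotation release and strand setting were not given in the sources used here. The units per fragment are unknown: 4 were assumed, so the floor of 3 fragments is 12 units. Floors and lower bounds rest on this and cover counting error only.

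The estimated counts were tested with edgeR 4.0.16 in R 4.3.3 (quasi-likelihood F test, robust, TMM, filterByExpr on group). The model had a term per group, used the 6 libraries together and left 3 residual degrees of freedom, with a common coefficient of variation of 18.4%. Log2 fold changes, SE and 95% intervals come from this fit and were not adjusted for the number of genes. Only the p-values were adjusted, over 19135 genes. FPKM had no test outside the alternatives.

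Members were described one by one if called in a comparison or at a mean of at least 10 CPM. Of the vitamin A and ethanol lists, called genes could be named. Members, roles and lists were chosen with earlier results of these data known. Coordinates, shared 50-base words, promoters and coding sequences come from the GENCODE annotation of GRCm39. Identity is that of coding sequence (Biopython 1.88), since no protein sequences were used here. Alternatives were RLE and upper-quartile normalization, other filters, DESeq2 1.42.0, a replicate block, limma 3.58.1 on log2(FPKM + 1) and log2(FPKM + 0.1), counts divided by 4, fits to the 2 groups compared, other fold limits and leaving out each library. The summing of Rdh9 with Rdh16f1 was added after the data had been seen. The steps were tested on simulated data. Figures were drawn with matplotlib 3.10.9.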

Additional observations from a re-analysis of the deposited data

Results flagged for a closer look

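In 3 members the cocktails differed from each other by edgeR's test of 5C against 3C, and the fitted log2 fold changes against DMSO had opposite signs. For each member at least 1 of those values against DMSO did not pass the test. Aldh18a1, of proline synthesis, had a log2 fold change of 0.32 in 5C against 3C (adjusted p = 0.0155), with 0.01 in 5C and -0.31 in 3C against DMSO. Its mean CPM was 133 in 5C and 134 in DMSO, so the level in 5C was not above that in DMSO on this scale. Aldh2 had -0.34 in 5C against 3C (adjusted p = 0.0382), with -0.08 in 5C and 0.26 in 3C against DMSO. Rdh14 had 0.47 in 5C against 3C (adjusted p = 0.0296), with 0.30 in 5C and -0.17 in 3C against DMSO. In each case both 5C libraries lay on the same side of both 3C libraries, as for 23 of the 34 tested members and 58% of all tested genes, and none was past the fold limit. The sign of the 5C value against DMSO reversed for Aldh18a1 and Aldh2 when a library was left out.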

How the results depend on the processing

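Of 1293 values recomputed under an alternative, 1243 kept their direction and side of the threshold, 28 lost a call, 12 gained one and 10 reversed. All 10 reversals came from leaving out a library and concerned small differences that were not called. The log2 fold changes of Aldh16a1 ranged from -0.11 to 0.027 (3C against DMSO) and from -0.13 to 0.017 (5C against 3C), of Aldh18a1 from -0.057 to 0.068 and Aldh2 from -0.18 to 0.015 (5C against DMSO), and of Rdh10 from -0.013 to 0.16 and Rdh13 from -0.064 to 0.011 (5C against 3C). The cause was not tested.

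Without a fold limit 18 members were higher and 2 lower in 5C against DMSO, 16 and 2 in 3C against DMSO, and 7 and 2 in 5C against 3C. With a log2 limit of 0.5 there were 15 and 1, 13 and 1, and 4 higher between the cocktails. The share of all tested genes at this limit was not taken, so these counts cannot be set against it. DESeq2 called 1 lower in 5C against DMSO. limma on log2(FPKM + 1), a scale that shrinks low genes, called 5 higher in 3C against DMSO (Adh4, Aldh5a1 and Rdh16 were lost) and 1 higher between the cocktails, as did limma on log2(FPKM + 0.1) and upper-quartile normalization. Leaving out a library gave 7 to 10 higher in each cocktail against DMSO, and 0 to 1 lower in 5C, the 1 being Adh7 without 5C replicate 2. In 5C against 3C it gave 0 to 3 higher: 0 without 3C replicate 1 or without 5C replicate 2, and 1 without 3C replicate 2 or without 5C replicate 1.

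Rdh7 was below the fold limit in 5C against 3C at 0.98 (upper-quartile normalization), 0.92 and 0.96 (limma), and 0.92 without 5C replicate 2. The 3C call of Rdh16 was also lost with limma on log2(FPKM + 0.1), and the 5C calls of Rdh16 and Adh4 (0.75) with limma on log2(FPKM + 1). The separate row of Rdh9 lost its 5C call with all genes of at least 1 count (adjusted p = 0.0887), DESeq2 (0.057) and only the 2 groups compared (0.0983), the last of which also took that of Aldh1a2 (0.0502). Replicate numbers did not pair the samples: same-numbered libraries had correlations of deviations from -0.03 to 0.02, across genes. With the number as a replicate block the member counts were 8, 8 and 2 higher, and Rdh9 (log2 fold change 4.53, adjusted p = 0.0541) was the call lost.

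Over all genes, limma on log2(FPKM + 1) called 716 higher and 508 lower in 5C against DMSO beside 1397 and 845, 582 and 376 in 3C beside 1116 and 693, and 201 and 57 between the cocktails beside 413 and 163. From FPKM the summed hepatocyte forms were 1.58 times DMSO in 5C, the forms of other cell types 0.833 times DMSO in 5C and 0.733 times in 3C, and 1.14 times 3C in 5C, beside 0.777, 0.634 and 1.23 from CPM, and the broadly expressed forms 1.16 in 3C beside 1.17. With 2 libraries per group, differences of members under 1 CPM were the least certain.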
